A study of Mus musculus with 6 samples.

Results

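A set of 10 genes that mark the cells around blood vessels were followed through 6 RNA-seq libraries of mouse endothelial cells: 5 genes of pericytes and vascular smooth muscle (Pdgfrb, Rgs5, Cspg4, Notch3 and Myh11) and 5 genes of fibroblasts (Pdgfra, Dcn, Lum, Postn and Dpt). The members were a named list, chosen with earlier results of these data known. All 10 were found among the 24421 gene symbols of the deposited table. For the skin, 2 libraries (1 per genotype) were made from blood endothelial cells (BECs) of E15.5 embryonic skin (E, embryonic day). The control (Cont) embryos were Tie2-Cre(-); Dot1l 2f/2f littermates and the conditional knockout (cKO) embryos were Tie2-Cre(+); Dot1l 2f/2f, so both genotypes carried the floxed Dot1l alleles, and RNA of 2 to 3 embryos was pooled for each library. Tie2-Cre acts in endothelial cells and is also known to act in blood cells, while pericytes and fibroblasts are not its intended targets. The other 4 libraries came from cultured lines of embryonic origin, the yolk sac BEC line CRL-2581 and dermal lymphatic endothelial cells (LECs, C57-6064L). Each was given an empty lentivirus (Cont) or a lentivirus for dCas9-VP64, an activator guided to the Dot1l promoter (overexpression, OE-BECs and OE-LECs). GFP-positive cells of 2 to 3 flasks made each of these libraries. Dot1l encodes the histone H3K79 methyltransferase.

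As background, pericytes are the contractile support cells embedded in the wall of capillaries. The endothelium attracts them by secreting PDGF-B, which binds the receptor encoded by Pdgfrb. On arteries, Notch3 and smooth muscle myosin take part in forming the muscular coat. Fibroblasts fill the dermis, respond to PDGF through the receptor encoded by Pdgfra, and secrete collagen together with matrix proteins such as decorin, lumican, periostin and dermatopontin. Endothelial cells are not usual sources of most of these transcripts, so the genes serve as markers of neighbouring cell types in a sort for endothelium.

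The study sorted skin BECs by the absence of F4/80, CD45 and Lyve1, and CD31 is also named as a positive marker. No pericyte or fibroblast surface protein was used to remove cells. In the files, all 12 blood endothelial genes of a marker list had reads in all 6 libraries, with a summed level of 4204 to 9155 CPM (reads per 1000000 reads of the library). Of the gated proteins, Ptprc, which encodes CD45, had 1206 reads in Cont and 2340 in cKO skin BECs, Adgre1, which encodes F4/80, had 1719 and 3411, and Lyve1 had 9105 and 19959. The macrophage list, 12 of 12 genes detected, summed to 3909 CPM in Cont and 6022.5 CPM in cKO skin BECs. The lymphatic gene Prox1 had 0 reads in both LEC libraries and both cultured BEC libraries, but 1304 and 883 reads in the skin BEC libraries. Of the 8 lymphatic genes, 3 had more than 3 reads in the LEC libraries: Lyve1 (1998 CPM in Cont and 1962 CPM in OE, against 604 and 1061 CPM in the BEC line), Flt4 (107 and 130 CPM, against 144 and 98.3 CPM) and Stab1 (475 and 217 CPM, against 1135 and 470 CPM). Lyve1 was thus higher in the LEC line, while in the controls Flt4 and Stab1 were lower in it and Prox1 had no read. The lymphatic label of the line is therefore not settled by these genes. The total count ran from 8863349 to 31032461 reads. Each condition has 1 library, so no difference could be tested against replicate error, and each value below describes single libraries. Dot1l itself was read 762 times in Cont and 944 times in cKO skin BECs (log2 ratio -0.07, 95% interval -0.21 to 0.07), which leaves the genotypes unseparated by these counts, and the text therefore speaks of the cKO-labelled library. These counts are for the whole gene, so they cannot show whether the floxed segment was removed. The study checked the knockout by RT-qPCR and took it as present, and that assay was not analysed here. Dot1l was 2.78-fold higher in OE-BECs and 2.30-fold higher in OE-LECs than in their controls.

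RefSeq promoter windows (GRCm38.p6, the same assembly as mm10) were given for 6 of the 10 genes, and the 250 bases before the RefSeq start are shown for 4 of them. The first 20 bases after this start were found in a GENCODE transcript for Rgs5 and Dpt but not for Postn or Pdgfra. Rgs5 and Postn were chosen because their reads were nearly all in the skin libraries, Pdgfra because it had reads in every library, and Dpt because it was called in OE-BECs. The reads of Cspg4 and Notch3 were also nearly all in the skin libraries, but their windows are not shown. The sequences run 5′ to 3′ on the plus strand, and capitals mark motif matches. They lie at chr1:169655251-169655500 (Rgs5), chr3:54360857-54361106 (the nearer of the 2 windows of Postn), chr5:75152001-75152250 (Pdgfra) and chr1:164796413-164796662 (Dpt).
Rgs5: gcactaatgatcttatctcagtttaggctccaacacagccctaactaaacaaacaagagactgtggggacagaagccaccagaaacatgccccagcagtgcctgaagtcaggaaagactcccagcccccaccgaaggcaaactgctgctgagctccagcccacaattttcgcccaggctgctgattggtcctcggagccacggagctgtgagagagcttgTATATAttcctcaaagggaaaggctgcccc
Postn: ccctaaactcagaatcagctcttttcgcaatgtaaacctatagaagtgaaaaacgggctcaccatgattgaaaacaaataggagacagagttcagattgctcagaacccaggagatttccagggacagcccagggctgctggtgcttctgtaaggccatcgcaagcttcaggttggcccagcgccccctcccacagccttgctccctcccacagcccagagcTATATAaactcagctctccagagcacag
Pdgfra: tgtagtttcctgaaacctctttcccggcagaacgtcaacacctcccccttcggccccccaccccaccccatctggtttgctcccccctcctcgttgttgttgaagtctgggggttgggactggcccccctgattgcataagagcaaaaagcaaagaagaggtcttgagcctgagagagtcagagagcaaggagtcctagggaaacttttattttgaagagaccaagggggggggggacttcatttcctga
Dpt: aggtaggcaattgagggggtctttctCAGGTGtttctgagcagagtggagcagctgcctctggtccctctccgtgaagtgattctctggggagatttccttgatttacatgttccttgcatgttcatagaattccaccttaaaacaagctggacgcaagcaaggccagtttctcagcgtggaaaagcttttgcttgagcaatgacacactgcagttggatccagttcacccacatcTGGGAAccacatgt

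The motifs searched on both strands were the CArG box of serum response factor, the AP-1 site TGACTCA, the RBPJ core TGGGAA of Notch signalling and the E-box CACCTG. Of 32851 windows of this length in the RefSeq table, 1.47% held the CArG box, 4.46% the AP-1 site, 21.6% the RBPJ core and 17.2% the E-box. Among the 7 windows of the 6 genes, only that of Dpt held any of them: the RBPJ core from 14 to 9 bases before the RefSeq start, and the E-box on the minus strand from 224 to 219 bases before it. The GENCODE gene of Dpt begins inside this window, so the RBPJ core lies within the gene as annotated there. The letters TATA starting 40 to 20 bases before the start were looked for after the sequences had been seen. They occur in the window of Rgs5 and the shown window of Postn, overlapping themselves in each, and in 5.81% of all windows. They do not occur in the windows of Cspg4 and Notch3, so they did not go with the skin pattern in every gene. The windows of Rgs5, Postn and Pdgfra each held 4 CpG dinucleotides and that of Dpt held 3, against a median of 6 over all windows, while Cspg4 held 12 and Notch3 held 17. The windows of Myh11, Dcn, Lum and Pdgfrb were not used here.

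The 10 genes were well covered in both skin libraries and close to absent from the cultured lines, with Pdgfra and Pdgfrb as the exceptions. Together they held 9122 reads in Cont and 9023 in the cKO-labelled library, which is 1029 and 814 CPM. In the cultured libraries the sum for the BEC line was 88 reads (4.98 CPM) with the empty virus and 121 (8.68 CPM) with OE, and for the LEC line 274 (10.5 CPM) and 717 (23.1 CPM). The plot of levels shows the gap between the skin and cultured points for every gene and how it narrows for Pdgfra.

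**Figure D1:**
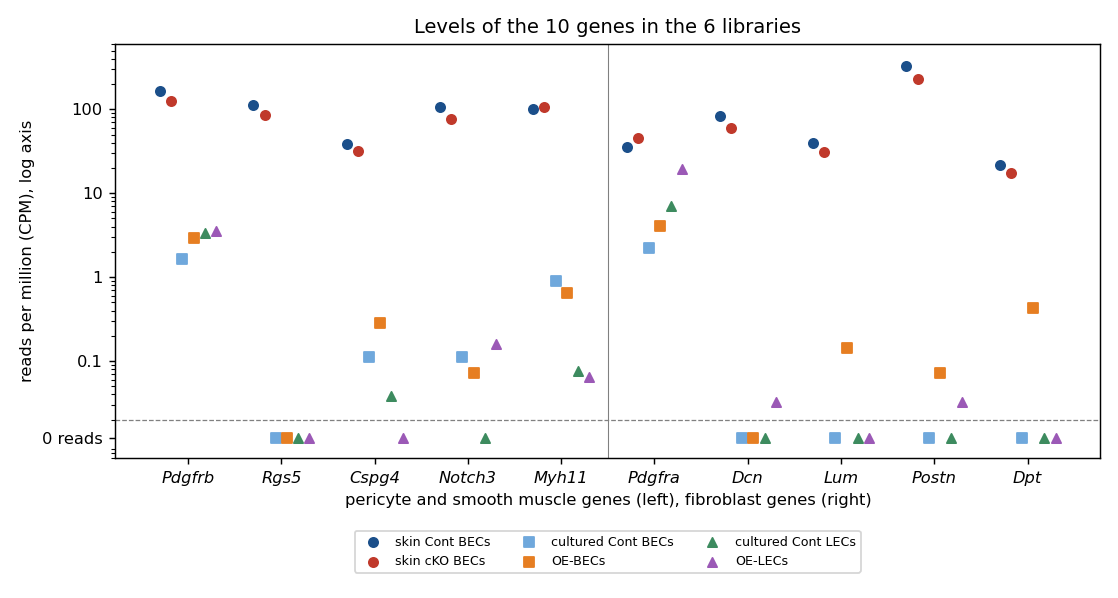
Level of each of the 10 genes, in CPM on a log axis, with 1 point per library and points with no read placed on the line marked 0 reads. The skin libraries lie at 17.5 CPM or more for every gene, while in the cultured libraries only Pdgfra (up to 19.3 CPM) and Pdgfrb (up to 3.54 CPM) exceed 1 CPM.

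Pdgfrb, the PDGF-B receptor that pericytes need to be recruited (chromosome 18 of mm10, 61045150 to 61085061), had 165 CPM in Cont skin BECs and 127 CPM in the cKO-labelled library. In cultured cells it had 1.64 CPM (Cont) and 2.94 CPM (OE) in the BEC line and 3.37 and 3.54 CPM in the LEC line. It was the only pericyte gene with more than 3 reads in each of the cultured libraries. Rgs5, a regulator of G protein signalling and a widely used pericyte marker (chromosome 1, 169655501 to 169695813), had 113 and 86.4 CPM in skin (998 and 958 reads) and 0 reads in all 4 cultured libraries. A count of 0 allows up to 3 reads, which is 0.0967 to 0.215 CPM at the depth of these 4 libraries. Against 3 reads, its level in Cont skin BECs was at least 664-fold above cultured Cont BECs and at least 980-fold above cultured Cont LECs.

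Cspg4, which encodes the pericyte surface proteoglycan NG2 (chromosome 9, 56865033 to 56899870), had 345 and 349 reads in skin (38.9 and 31.5 CPM) and 2 and 4 reads in the BEC line (Cont, then OE) and 1 and 0 reads in the LEC line. Notch3, the Notch receptor of mural cells (chromosome 17, 32120820 to 32166852), had 941 and 858 reads in skin (106 and 77.4 CPM) and 2, 1, 0 and 5 reads in the cultured libraries in the same order. Both genes therefore stood at or near the counting floor outside skin. Myh11, the smooth muscle myosin heavy chain (chromosome 16, 14194535 to 14291372), had 894 and 1189 reads in skin (101 and 107 CPM), 16 and 9 reads in cultured Cont BECs and OE-BECs, and 2 reads in each LEC library. Its low cultured counts were higher in the BEC line than in LECs.

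Of the fibroblast genes, Postn, which encodes the matrix protein periostin (chromosome 3, 54361109 to 54391037), had the largest counts, with 2895 and 2557 reads in skin (327 and 231 CPM) and 0, 1, 0 and 1 reads in the cultured libraries. Dcn, which encodes the collagen-binding proteoglycan decorin (chromosome 10, 97479609 to 97518143), had 730 and 665 reads in skin (82.4 and 60.0 CPM) and 0, 0, 0 and 1 in culture. Lum, encoding lumican of the same family (chromosome 10, 97565128 to 97572703), had 352 and 339 reads in skin (39.7 and 30.6 CPM) and 0, 2, 0 and 0 in culture. These 3 matrix genes had at most 2 reads in any cultured library. Dpt, encoding dermatopontin of the dermal matrix (chromosome 1, 164796644 to 164824266), had 194 reads in each skin library (21.9 and 17.5 CPM) and 0, 6, 0 and 0 reads in culture. Its only cultured reads were those of OE-BECs.

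Pdgfra, the receptor that defines many fibroblasts (chromosome 5, 75152292 to 75198215), departed from this pattern. It had 312 and 510 reads in skin (35.2 and 46.0 CPM), 39 reads (2.21 CPM, Cont) and 57 (4.09 CPM, OE) in the BEC line, and 183 (7.01 CPM, Cont) and 598 (19.3 CPM, OE) in the LEC line. It was the only fibroblast gene with more than 3 reads in cultured Cont BECs or in either LEC library. Skin Cont BECs exceeded cultured Cont BECs by 16.0-fold (interval 11.4 to 22.9) and cultured Cont LECs by 5.02-fold (interval 4.17 to 6.06) for Pdgfra, the smallest such ratios among the 10 genes. For Pdgfrb they were 101-fold (69.7 to 151) and 48.9-fold (39.4 to 61.4). For Postn they were 1926-fold and 2844-fold with 3 reads in place of 0, with lower interval limits of 1565-fold and 2311-fold. All 10 genes were more than 3 times higher in CPM in skin Cont BECs than in either cultured control. So were 28.8% of all 16514 genes compared with cultured Cont BECs and 34.6% of 17011 compared with cultured Cont LECs. For the 10 genes the same held with size factors from all 6 libraries. The genes were chosen with earlier results of these data known, so their count is not read against these shares. Intervals and floors cover counting error only, since reads that carry no molecular identifier can be copies of 1 molecule, and the tissue, the sort and the culture differ together, so they cannot be told apart here.

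The share of each gene in the reads of all 10 differed accordingly. Postn held 31.7% (Wilson 95% interval 30.8 to 32.7) of them in Cont skin BECs and 28.3% (27.4 to 29.3) in the cKO-labelled library. Pdgfra held 3.42% (3.07 to 3.81) and 5.65% (5.19 to 6.15) there, but 44.3% (34.4 to 54.7) in cultured Cont BECs, 66.8% (61.0 to 72.1) in Cont LECs and 83.4% (80.5 to 85.9) in OE-LECs. The chart of shares shows the change from a mixture of 10 genes in skin to mainly 2 receptor genes in culture.

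**Figure D2:**
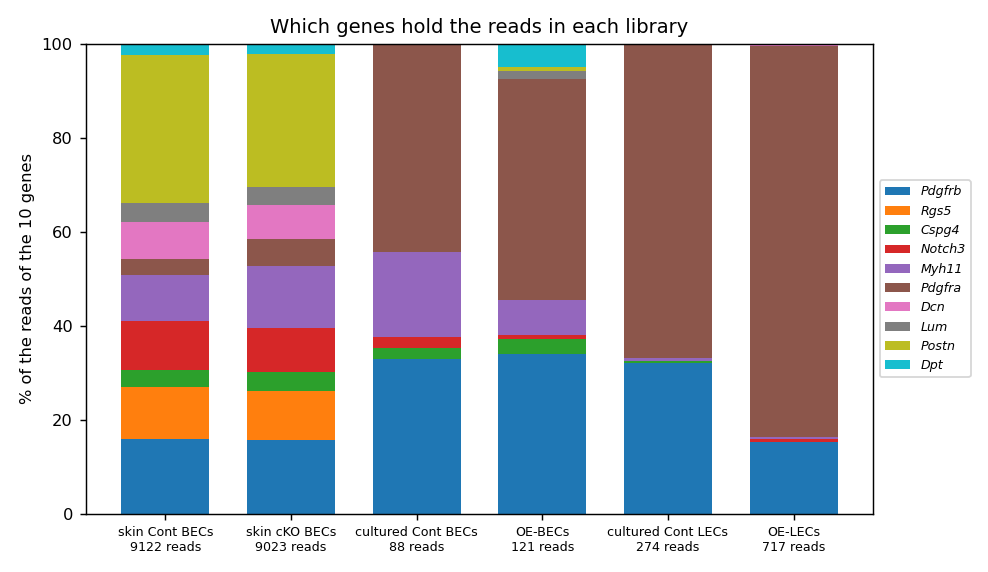
Share of the reads of the 10 genes held by each gene, in percent, with 1 stacked bar per library and the number of reads under it. Postn takes 31.7% in Cont skin BECs and Pdgfra takes 83.4% in OE-LECs, where 717 reads stand behind the bar.

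Compared per kilobase of annotated exon, in CPM per kilobase, the level in Cont skin BECs was highest for Postn (37.5, interval 36.2 to 38.9), followed by Pdgfrb (30.1), Rgs5 (24.8), Lum (16.2), Dcn (14.1), Myh11 (13.3), Notch3 (13.1), Dpt (12.7), Pdgfra (3.51) and Cspg4 (3.26). The intervals of neighbours from Lum down to Dpt overlapped, as did those of Pdgfra and Cspg4, so the counts did not resolve the order of these neighbours, although Lum (14.6 to 18.0) lay above Myh11 (12.4 to 14.2) and Notch3 (12.3 to 14.0). In the cKO-labelled library, Postn (26.5), Pdgfrb (23.1) and Rgs5 (19.0) again came first, and Myh11 (14.1) came next. For scale, the endothelial genes Pecam1 and Cdh5 had 189 and 360 CPM per kilobase in Cont skin BECs, against 30.1 for Pdgfrb. Postn lay above 94.0% and Cspg4 above 47.3% of the 17045 genes with a length and a read in that library. In OE-LECs, Pdgfra lay above 38.5% of 14909 genes.

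The first comparison asked how the genes differed between the skin libraries. Of the 10 genes, 8 were lower in the cKO-labelled library than in Cont BECs, by 0.36 to 0.56 on the log2 scale, while Myh11 was level and Pdgfra was higher. None reached the threshold of the study's methods, which is a normalized count (reads divided by a size factor from the median of ratios) of at least 5 and more than 3 times the other, against 7.58% of 15993 genes over both directions (5.17% higher, 2.41% lower). None differed by more than 2 times either, as 10.4% of genes did upward and 5.23% downward. The median log2 ratio was -0.43 over the 10 genes, -0.44 over the 5 pericyte and smooth muscle genes and -0.43 over the 5 fibroblast genes, while it was 0.01 over all 16589 genes with more than 3 reads in either library. The interval lay below 0 for 8 of 10 genes and above 0 for 1, against 24.1% and 22.0% of all genes. Whether an interval excludes 0 depends on the number of reads. Each member had at least 194 reads in both skin libraries, while all genes include many with few reads. The counts of members are therefore not read against these shares. In bulk RNA, fewer cells of a type and less RNA per cell cannot be told apart.

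Pdgfrb had 1665 and 1232 normalized counts (Cont, then cKO), a log2 ratio of -0.44 (95% counting interval -0.54 to -0.33). Rgs5 gave the same ratio, -0.44 (-0.57 to -0.31), from 1138 and 840 normalized counts. Notch3 was somewhat lower still, at -0.51 (-0.65 to -0.38), and Cspg4 at -0.36 (-0.58 to -0.14). The intervals of these 4 genes overlapped each other. Myh11 stood apart from them, with 1019 and 1043 normalized counts and a ratio of 0.03 (-0.09 to 0.16) whose interval does not reach that of Cspg4, the nearest of the 4.

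Among the fibroblast genes, Postn had the lowest ratio, -0.56 (-0.63 to -0.48), from 3300 to 2243 normalized counts. Dcn followed with -0.51 (-0.67 to -0.36), Lum with -0.43 (-0.65 to -0.21) and Dpt with -0.38 (-0.67 to -0.08). The secreted matrix genes thus shifted by similar amounts within counting error. Pdgfra went the other way, with 356 and 447 normalized counts, a ratio of 0.33 (0.12 to 0.54). The fibroblast genes together had 0.966 reads per read of the pericyte and smooth muscle genes in Cont and 0.896 in the cKO-labelled library.

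The direction depended on what the genes were scaled to. The blood endothelial genes were lower in the cKO-labelled library by a larger amount, with 11 of 12 lower and a median of -0.70, including Pecam1 (-0.71) and the VEGF receptor gene Kdr (17700 and 8862 normalized counts). Per 1000 reads of those 12 genes, the 10 genes had 155 reads in Cont and 194 in the cKO-labelled library. With these reads as the scale, an alternative added after the data were examined, all 10 genes were higher in the cKO-labelled library, by 0.16 (Postn) to 1.05 (Pdgfra) with a median of 0.28. In the same libraries 11 of 12 macrophage genes were higher, with a median of 0.72, and 11 of 14 keratinocyte genes, with a median of 1.08. The remaining lists had medians of -0.46 (skeletal muscle, 7 of 10 lower), 0.43 (Schwann and neural crest, 7 of 9 higher), -0.08 (lymphatic, 4 of 7 lower) and -0.08 (erythroid, 2 of 3 lower). Hbb-y, an embryonic globin gene of the erythroid list, was called higher on 18 and 249 reads, a ratio of 3.41 (2.72 to 4.19), as were the keratin genes Krt1 (33 and 254 reads) and Krt10 (51 and 263 reads). Their part in the result was not tested. In the plot of both scalings 8 of the 10 genes change side, while Pdgfra is above 0 under both. Myh11 moves from level (0.03, interval -0.09 to 0.16) to 0.75.

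**Figure D3:**
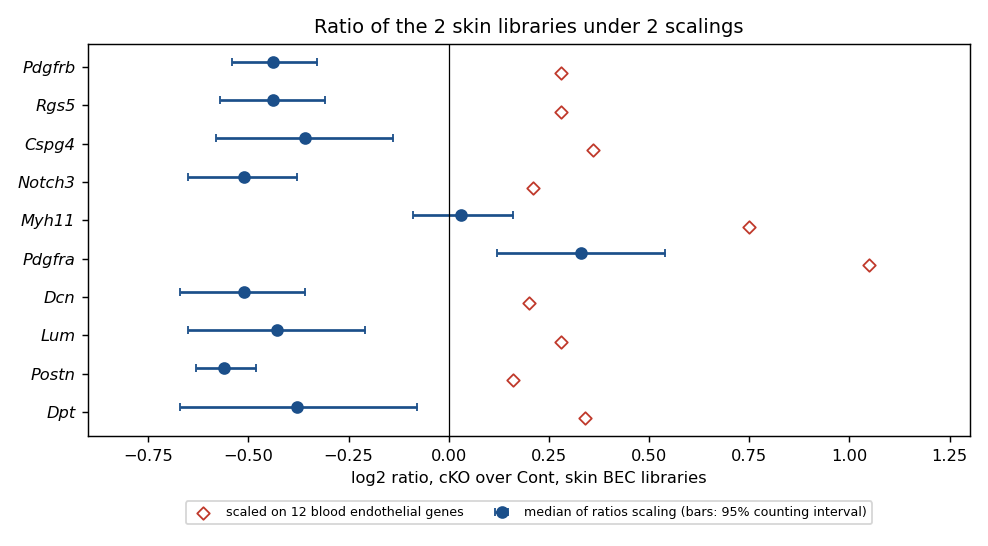
Log2 ratio of the cKO-labelled library over Cont skin BECs for each gene, with filled points and 95% counting intervals under median of ratios scaling and open diamonds when scaled to 12 blood endothelial genes. The filled points of 8 genes lie below 0 (down to -0.56) and all diamonds lie above it (0.16 to 1.05).

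Wider lists of the same cell types gave similar medians. For scale, 8105 of all 16589 genes with more than 3 reads in either library were lower and 8484 higher. Of 15993 genes, 7.58% were called. Of 24 other pericyte and smooth muscle genes, 20 were lower and 4 higher in the cKO-labelled library, none was called, and the median was -0.35. Mcam, a cell adhesion molecule, was at -0.59 and Mylk, the myosin light chain kinase, at -0.52, while Smtn, the cytoskeletal protein smoothelin, was at 0.10 (-0.02 to 0.22). These 3 had the highest mean level of the list, and all had at least 1829 reads in each of the cultured endothelial lines as well. Of 26 other fibroblast genes, 15 were lower and 11 higher, with a median of -0.32. Col1a2 (-0.57) and Col3a1 (-0.45), chains of fibrillar collagens, were close to Dcn and Lum. Tnc, which encodes the matrix protein tenascin C, was the only gene of these 50 that was called, with 1001 and 7338 reads (1141 and 6437 normalized counts) and a log2 ratio between 2.40 and 2.59. It is also read in the cultured lines, at 12173 reads in Cont BECs and 11046 in Cont LECs.

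**Figure D4:**
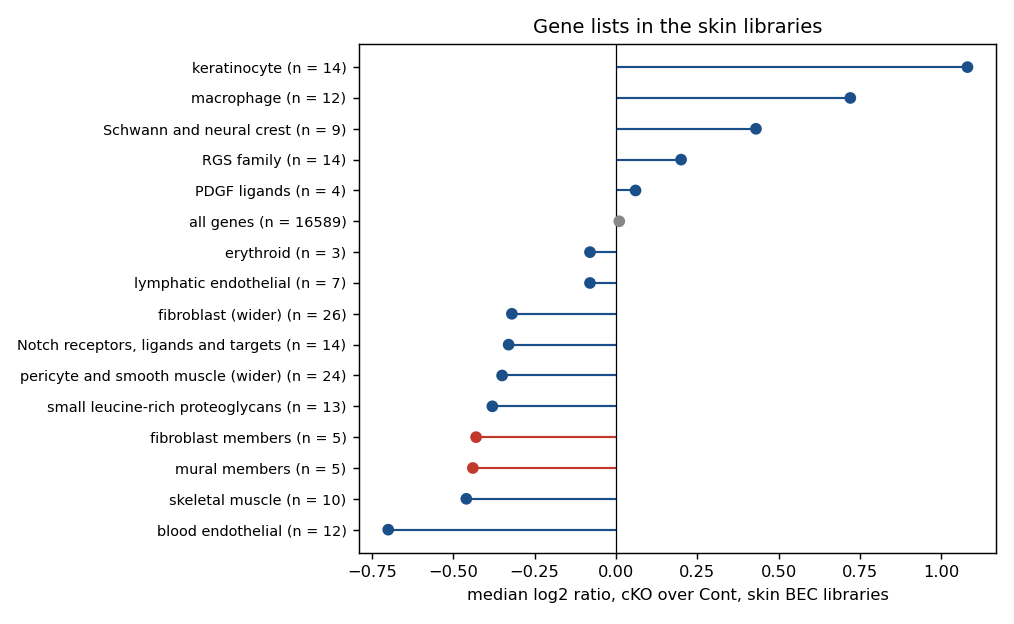
Median log2 ratio of the cKO-labelled library over Cont skin BECs for each gene list, with n the genes over 3 reads, the 10 genes in red (5 pericyte and smooth muscle, shown as mural members, and 5 fibroblast) and all genes in grey. The red points (-0.44 and -0.43) lie between the blood endothelial list (-0.70) and the median of all genes (0.01).

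The relatives of single members are best read beside them. Pdgfb, the endothelial ligand of Pdgfrb, had 749 and 1119 reads, a ratio of 0.20 (0.07 to 0.34). Pdgfa, a ligand of Pdgfra, was at -0.09 (-0.41 to 0.23), and Pdgfd, which binds the beta receptor, at -0.33 (-0.70 to 0.04). Neither interval excludes 0. Pdgfc, another ligand of Pdgfra and below the rule for naming, had 38 and 125 reads, a ratio of 1.34 (0.81 to 1.90). Of 14 genes of Notch signalling, 10 were lower and 4 higher, with a median of -0.33 and none called. Over all genes, 8105 of 16589 were lower and 7.58% of 15993 were called. Notch1 was at -0.31 (-0.38 to -0.23) and Notch4, the endothelial receptor, at -0.63 (-0.76 to -0.50), against -0.51 for Notch3. Going the other way, Jag1, a Notch ligand, was at 0.11 (0.01 to 0.20), and Rbpj, the DNA-binding partner of Notch and named after its values were seen, had the largest shift of the list, 1.28 from 901 and 2846 reads. Of 14 proteoglycans related to Dcn and Lum, 13 had more than 3 reads in skin, 8 of them lower, with a median of -0.38. Biglycan (Bgn) was at -0.44 (-0.56 to -0.31) and asporin (Aspn) at -0.96 (-1.13 to -0.80). Of 15 relatives of Rgs5, 14 had more than 3 reads, 9 of them higher and 5 lower, with a median of 0.20. Rgs2 was at -1.02 (-1.16 to -0.89), and Rgs11, at 7 and 50 reads, was called higher.

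Overexpression of Dot1l was compared in each line next. In OE-BECs, 5 of the 10 genes had more than 3 reads in either library, 4 of them higher and 1 lower than in Cont BECs. Only Dpt was called higher and no gene lower by the rule for OE samples (at least 3 normalized counts and more than 3 times the other), where 8.02% of 14792 genes were called higher and 5.27% lower. Dpt went from 0 reads (Cont) to 6 (OE). With 3 reads in place of 0 it was 2.61-fold higher, and the lower limit of its log2 ratio was 0.62. Pdgfra had 39 and 57 reads, a log2 ratio of 0.93 (0.32 to 1.56), and Pdgfrb had 29 and 41 reads, a log2 ratio of 0.88 (0.16 to 1.62). The ratios of the 2 receptors lie well inside each other's intervals. Cspg4 (2 and 4 reads, 1.38, interval -1.42 to 4.85) and Myh11 (16 and 9 reads, -0.45, interval -1.81 to 0.82) were not distinguishable between the libraries at this depth. The interval lay above 0 for Dpt, Pdgfra and Pdgfrb and below 0 for none, against 27.0% and 28.1% of all 14440 genes with more than 3 reads. Dpt and Cspg4 were more than 2 times higher, as were 11.4% of genes, and none was 2 times lower, against 8.81%. Dpt and Cspg4 passed the limit of 3 reads through the OE library alone, where they are higher, so the counts of members are not read against these shares.

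In OE-LECs, Pdgfra was 2.78-fold higher than in Cont LECs. Its 198 and 552 normalized counts give a log2 ratio of 1.48 (1.24 to 1.72), which is under the 3-fold of the rule and above 2-fold, a size that 4.98% of 13883 genes passed in this direction and 4.26% in the other. Pdgfrb had 88 and 110 reads, a log2 ratio of 0.09 (-0.33 to 0.51). Per kilobase of annotated exon, the 2 receptors lay close to each other in Cont LECs (0.699 CPM per kilobase for Pdgfra and 0.615 for Pdgfrb). They differed in OE-LECs (1.92 and 0.647). With the longest transcript as the length, they were already apart in Cont LECs (1.03 and 0.621) and further apart in OE-LECs (2.82 and 0.654). The interval for Pdgfrb excludes a ratio as large as that of Pdgfra. Notch3 was at 0 reads with the empty virus and at 5 with OE. It was the only member called higher, where 2.77% of genes were called higher, and none was called lower, as 2.09% were, which makes 4.86% over both directions. Its interval reaches down to -0.36, so no difference was detectable at this depth. The other 7 genes had 3 reads or fewer in both LEC libraries, and no fold is given for them. Notch3 passed the limit of 3 reads through the OE library alone.

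**Figure D5:**
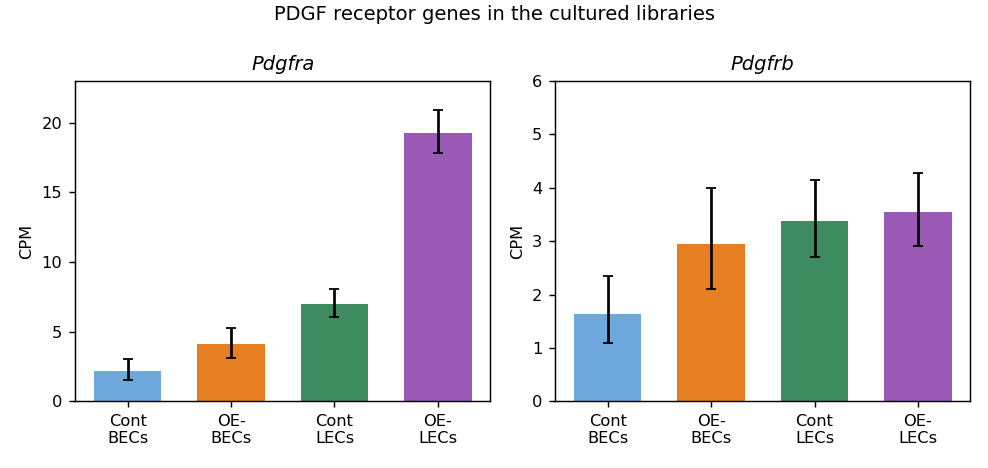
CPM of Pdgfra (left, axis to 23) and Pdgfrb (right, axis to 6) in the 4 cultured libraries, with 1 bar per library and exact Poisson 95% intervals for counting error. Pdgfra reaches 19.3 CPM in OE-LECs against 7.01 CPM in Cont LECs, while Pdgfrb stays at 3.54 and 3.37 CPM.

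Pdgfra was higher in both OE libraries, by 0.93 in BECs and 1.48 in LECs, and the intervals overlap. Whether the response differs between the lines was not tested. The nearest annotated protein-coding gene at higher coordinates of Pdgfra is Kit, which encodes the stem cell factor receptor of the same receptor family and lies 376700 bases away on the same strand. Its level was 397 CPM against 92.2 CPM with OE in the BEC line and 220 CPM against 65.5 CPM in the LEC line, so it was lower in both OE libraries while Pdgfra was higher. On the other side Gsx2, 74398 bases away, had 0 reads in all 6 libraries. Pdgfa, a ligand of Pdgfra, was higher in OE-LECs too, at 349 and 936 reads and a log2 ratio of 1.19 (1.01 to 1.37), while Pdgfb was lower, at 2666 and 1598 reads and -0.97 (-1.06 to -0.88). In OE-BECs the ratios were 0.43 (0.14 to 0.71) for Pdgfa, -0.28 (-0.41 to -0.15) for Pdgfb and 0.94 (0.72 to 1.16) for Pdgfd. Pdgfc was called lower there on 6 and 1 reads.

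The wider lists were sparsely read in the cultured lines. In OE-BECs, 13 of 24 pericyte and smooth muscle genes had more than 3 reads. Of these 7 were higher and 6 lower, and counting intervals lay above 0 for 2 and below 0 for 4. Some genes passed the limit of 3 reads through 1 library alone. Higd1b (1 and 7 reads) did so through OE and Foxs1 (4 and 1 reads) through Cont. Ednra, called on 0 and 3 reads, is not among the 13. Of 14792 genes in OE-BECs, 8.02% were called higher and 5.27% lower, and of 13883 in OE-LECs, 2.77% and 2.09%. Calls in these lists are not read against those shares. Of the 5 genes called higher in the list, Ndufa4l2, Higd1b, Cox4i2, Ednra and Lmod1, only Cox4i2, a subunit of cytochrome c oxidase, had more than 10 reads (8 and 55, log2 ratio 3.16, interval 2.09 to 4.45), and Foxs1 was called lower on 4 and 1 reads. Of the fibroblast genes, 10 of 26 had more than 3 reads, 7 of them lower. Col1a2 (0 and 17 reads) and Twist2 (0 and 5 reads) were called higher. Fbln2, which encodes fibulin 2 and had 1628 and 112 reads (log2 ratio -3.48), Pi16 (44 and 3 reads) and Prrx1 (4 and 0 reads) were called lower. Tnc was lower as well, at -1.12 (-1.17 to -1.07). In OE-LECs, 9 pericyte and smooth muscle and 8 fibroblast genes had more than 3 reads. Of these, Des (1 and 8 reads) and Prrx1, a transcription factor of mesenchyme (6 and 60 reads, log2 ratio 3.09, interval 1.89 to 4.59), were called higher and Higd1b (5 and 1 reads) was called lower. Col3a1 had 0 reads in Cont BECs and OE-BECs and 2 and 3 in the LEC libraries.

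Endothelial genes moved in the same libraries, where 7285 of all 14440 genes were lower in OE-BECs and 6671 of 13696 in OE-LECs. In OE-BECs 12 of 12 blood endothelial genes were lower, with a median of -0.56, and in OE-LECs 11 of 12, with a median of -0.27. Among Notch genes in OE-BECs, 10 of 12 were lower. Dll4, the arterial Notch ligand (2717 and 635 reads), and the Notch targets Hey1 (51 and 10) and Hey2 (4 and 0) were called lower, while Notch3 had 2 and 1 reads. In OE-LECs, 5 of 11 Notch genes were higher and 6 lower, and Hey1 (8 and 2 reads) was called lower. Of the proteoglycans, 7 had more than 3 reads in BECs and 6 in LECs, and Bgn was called lower in OE-LECs on 9 and 2 reads. Of the RGS family in OE-BECs, Rgs2 (4018 and 963 reads) and Rgs14 (17 and 4) were called lower, and Rgs9 (3 and 8) and Rgs11 (2 and 9) were called higher. In OE-LECs none of the 8 RGS genes with reads was called.

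Position in the genome showed several members beside relatives. Dcn and Lum lie 46984 bases apart on chromosome 10, on the same strand, and Kera, the gene of the related proteoglycan keratocan, follows Lum after 34175 bases with 21 and 15 reads in skin and at most 2 in any cultured library. Rgs5 is followed after 45663 bases by Rgs4, which had 57 and 86 reads in skin and 0 in culture. Pdgfrb is followed after 15536 bases on the same strand by Csf1r, the receptor of macrophages, with 3866 and 6218 reads in skin. Under median of ratios scaling these neighbours differed in opposite directions between the skin libraries (-0.44 for Pdgfrb and 0.31 for Csf1r). Scaled to the 12 blood endothelial genes, Pdgfrb was itself higher (0.28). No gene of the table overlaps a member except a microRNA inside Pdgfra with at most 1 read.

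Over the 6 libraries, 13265 genes with at least 100 reads in all were compared with Pdgfrb and with Dcn by the root mean square difference of centred log2(CPM + 1). The nearest to Pdgfrb were Gucy1a2 (0.189), Pde5a (0.199), Celsr1 (0.220), Bmpr1a (0.234) and Tspan2 (0.236). The nearest to Dcn were Arhgap32 (0.033), Gnai1 (0.061), Robo1 (0.083), Cybb (0.091) and Tshz2 (0.095), each with 0 reads in every cultured library. Among the members, Lum was 14th nearest to Pdgfrb and Notch3 was 10th nearest to Dcn. Pdgfra was the farthest member from both, in place 1472 and 1639. These distances rest on 6 libraries and are a description. For genes with almost no cultured reads, such as Dcn, they reflect little beyond the level in the skin libraries. Nearness to Dcn therefore does not assign a gene to a cell type.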

How the data were processed

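For each condition 1 ScriptSeq v2 library was sequenced. Adapters were removed by skewer v0.2.2, STAR v2.7.9a aligned to mm10, and VERSE v0.1.5 did the counting. The authors deposited raw counts for 24421 gene symbols, 4473 of them with no read. RNA came from 2 to 3 pooled embryos or flasks. Whether counting used strand is not given in the sources used here. From these counts, CPM with exact Poisson intervals were computed, and size factors by the median of ratios for the pair of libraries compared (R 4.3.3, DESeq2 1.42.0). With 1 library per condition no model was fitted. The threshold of the study's methods was used, and log2 ratios carry exact (Clopper-Pearson) 95% intervals on the reads of both libraries. A library at 0 reads was set to 3 reads for bounds and medians, and medians cover genes with more than 3 reads in either library.

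Positions and exon lengths are from GENCODE M21, promoters from RefSeq. The members and the 13 lists (171 entries, 3 matched by an older symbol) were chosen with earlier results of these data known. Genes named beside the members come from the 3 genes of each list with the highest mean CPM, called genes with at least 100 normalized counts, the 5 genes nearest to Pdgfrb and Dcn, and others named where a count is small, chosen after their values were seen. The alternatives were other size factors, TMM (edgeR 4.0.16), total counts, another fold, minimum or pseudocount, and the endothelial scale. Steps were tested on simulated data. Python 3.11.15, numpy 2.4.6, scipy 1.17.1 and pandas 2.3.3 were used.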

Additional observations from a re-analysis of the deposited data

How the results depend on the processing

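No member was called between the skin libraries under any of the 9 alternatives, and their median log2 ratio kept its sign under other size factors, TMM, total counts, the stricter gene filter and a pseudocount (-0.43 to -0.38). It turned to 0.28 with the 12 blood endothelial genes as the scale, which also gave medians of 1.58 in OE-BECs and 0.69 in OE-LECs and 2 called members in each. The single called member of OE-BECs became 2 with size factors from the 4 cultured libraries or with a fold of more than 2, and 0 with a minimum of 20. With size factors from the 4 cultured libraries the added gene was Lum, on 0 and 2 reads. It passed the minimum of 3 only because the size factor of OE-BECs was smaller (0.610 in place of 0.876). That of OE-LECs became 2 with a fold of more than 2, and 0 with size factors from all 6 libraries, with a minimum of 20, or when the counting interval also had to exclude 0. The median in OE-LECs was 0.51, which is Notch3 at its bound, and 1.47 with a pseudocount of 1. The medians in both OE comparisons include genes that passed the read limit through the OE library alone, and nothing is read from them. Calls on 5 or 6 reads are limited by depth. With the longest transcript as the length, Postn had 62.5 CPM per kilobase in Cont skin BECs and 6 of 10 genes moved beyond their counting interval. Dcn (17.6) then stood above Lum (16.2), and Myh11 was at 15.4, so that part of the order depended on the length used. No paired analysis was possible because each condition has 1 library.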
